A study of Mus musculus with 965 samples.

Results

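At day 6 of embryoid body differentiation, 80 of 348 cells met a rule based on markers of the primed epiblast, and they are described here (80 of 965 cells in the whole series). Cells were selected on raw reads: a cell was taken when it had at least 5 raw reads in at least 4 of the 7 primed markers Fgf5, Otx2, Trh, Mal2, Pim2, Sp8 and Gja1, and at least 5 raw reads in at most 2 of the 7 naive pluripotency genes Zfp42, Dppa3, Esrrb, Tfcp2l1, Klf2, Dppa5a and Tdh. The members were thus chosen by the reads of these 14 genes, and their levels are given as a description with no test of their own. They stayed in the models fitted across all genes, and how many of them were among the calls is given there. The study asked how mouse embryonic stem cells (ESCs) differentiate without either of the enzymes that lay down new DNA methylation. E14 ESCs, an established mouse line, were moved to low-attachment plates without leukemia inhibitory factor (LIF), and single cells of the resulting embryoid bodies (EBs) were sequenced at days 3, 6 and 8 by a modified Smart-seq2 protocol. Cells were wild type (WT, 1 culture), 3AKO (homozygous Dnmt3a knockout, clones 3A2 and 3A38) or 3BKO (homozygous Dnmt3b knockout, clones 3B126 and 3B77). Each clone was treated as 1 sample, and nothing in the labels says that a clone was differentiated more than once, so p-values measure the spread between clones only. The labels give 3 batches. Batch 1 held both 3AKO clones, batch 2 held WT and 3B126, and batch 3 held 3B77, so genotype is separable from batch only for 3B126 against WT. The labels also give plates. At days 3 and 6 each clone had a plate of its own on each day, so neither day nor clone can be told apart from plate.

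Naive ESCs resemble the epiblast before implantation, and they rely on a network that includes Zfp42 (Rex1), Esrrb, Tfcp2l1 and Klf2. On leaving LIF they pass through a formative and then a primed state, which resembles the epiblast after implantation and keeps Pou5f1 and Sox2 while it gains Fgf5, Otx2 and the de novo methyltransferases. From the primed state, Nodal and Wnt signals lead to mesoderm and endoderm, and in their absence the cells turn to neurectoderm, where Sox1 appears and N-cadherin (Cdh2) takes the place of E-cadherin.

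The cells that met the rule were carried by 5 of the 7 markers. Gja1, the gap junction protein connexin 43, reached 5 reads in 79 of the 80 cells. Trh, the precursor of thyrotropin-releasing hormone, reached 5 reads in 73 cells, the homeobox factor Otx2 in 63, the kinase Pim2 in 63 and the zinc finger factor Sp8 in 62. The growth factor Fgf5, the usual marker of the epiblast after implantation, reached 5 reads in 21 cells and had no read in 55. Mal2, a membrane protein of epithelial transport, reached 5 reads in 1 cell and had no read in the other 79. In the 108 day 3 cells that met the same rule, Fgf5 was at 5 reads in 70.4% and Mal2 in 33.3%, against 26.3% and 1.25% of the day 6 cells. Of these 108 cells, 51 were of 3A38, 12 of 3A2, 36 of 3B77, 5 of WT and 4 of 3B126. Clone and batch thus differ as well as day. Reads per marker were few, with a median over the 80 cells of 56 for Gja1, 36 for Trh, 24.5 for Otx2, 18 for Sp8, 12 for Pim2 and 0 for Fgf5. No cell held all 7 markers, 7 cells held 6, 28 held 5, and 45 sat at the limit with 4. Just outside the limit, 42 day 6 cells held 3 markers within the naive limit. These 42 had a median of 144 reads over the 7 markers, against 178 in the 45 cells at the limit. The naive limit removed 3 further cells, all of clone 3A2, which had 4 markers. In 68 of the 80 cells no naive gene reached 5 reads. Of the markers, Fgf5 lies on chromosome 5 (98254184-98277030), Otx2 on 14 (48657677-48673819), Trh on 6 (92242061-92244650), Mal2 on 15 (54571192-54602847), Pim2 on X (7878262-7883432), Sp8 on 12 (118846329-118852576) and Gja1 on 10 (56377330-56402513), all in GRCm38 with GENCODE M21.

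The primed-marker cells came almost wholly from WT and 3BKO embryoid bodies. They made up 38 of 71 day 6 cells in clone 3B77 (53.5%, 95% Clopper-Pearson interval 41.3 to 65.5) and 28 of 58 in clone 3B126 (48.3%, 35 to 61.8). In WT they were 13 of 67 cells (19.4%, 10.8 to 30.9). Clone 3A2 held 1 of 80 (1.25%) and clone 3A38 held 0 of 72, which allows a share of up to 4.17% at a limit of 3 cells, or 4.99% as the exact 95% upper bound. These intervals and limits cover counting error only. The mean share was 50.9% ± 3.71 (SD, n = 2) in the 3BKO clones and 6.88% ± 10.9 (SD, n = 3) in the other clones, a difference of 44.0 percentage points. The exact two-sided permutation test over clones gave p = 0.1, the smallest p that 2 clones against 3 allow. Within batch 2, 3B126 was at 48.3% and WT at 19.4%. This is 1 clone against 1 culture, on different plates, and allows no test. Clone 3B77 had no WT cells in its batch. The day 6 cells of 3B126 were also read more deeply than those of WT, with a median of 500240 against 196104 reads, and after every cell was thinned to 50000 reads the shares were 3.45% in 3B126 and 2.99% in WT. The difference between the 3BKO clones and the others was then 4.95 percentage points (exact two-sided permutation p = 0.2), and the part of depth in the difference of 44.0 points was not tested further. In 3A2, 4 of the 80 day 6 cells (5%) reached 4 primed markers, so most of its cells failed on the markers. The naive limit removed 3 of these 4. Over all cells of a clone, 20 of 80 met the naive limit in 3A2, against 71 of 72 in 3A38, where 0 cells reached 4 markers.

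**Figure D1:**
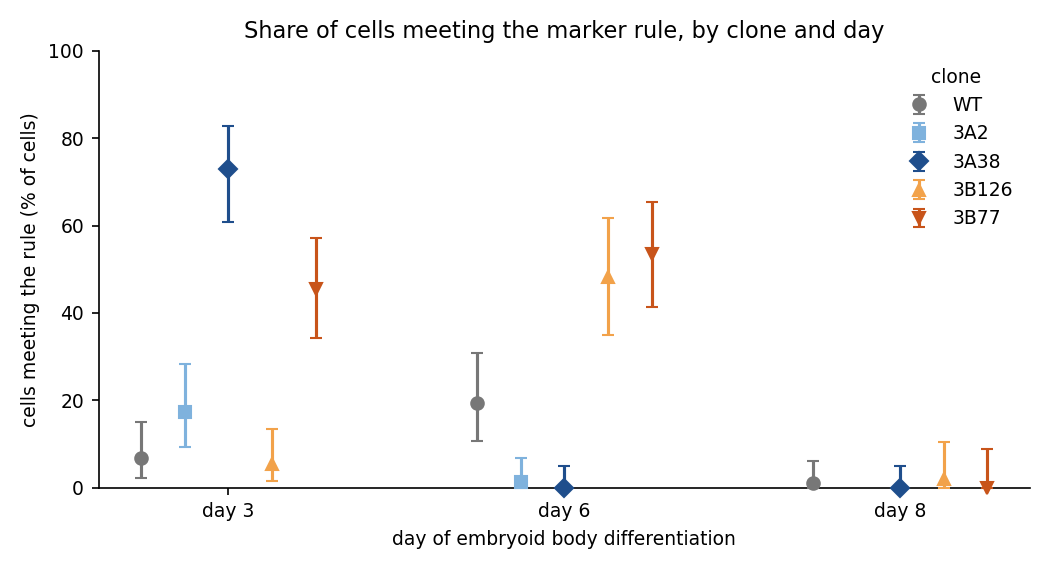
Share of cells that met the marker rule (y axis, percent of cells) at days 3, 6 and 8 (x axis) in the 5 clones, with exact 95% binomial intervals as bars. At day 6 the 3B126 and 3B77 points sit at 48.3% and 53.5%, WT at 19.4%, and both 3AKO clones at or near 0.

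The clones differed in the path by which they arrived at these shares. At day 3 the same rule was met by 51 of 70 cells in 3A38 (72.9%), 36 of 79 in 3B77 (45.6%), 12 of 69 in 3A2 (17.4%), 5 of 74 in WT (6.76%) and 4 of 73 in 3B126 (5.48%). From day 3 to day 6 the share moved by 42.8 percentage points in 3B126, 12.6 in WT, 7.95 in 3B77, -16.1 in 3A2 and -72.9 in 3A38. Paired by clone, the mean change over the 5 clones was -5.12 points (exact sign-flip permutation test, two-sided, p = 0.8125, smallest possible 0.063). After thinning to 50000 reads, 3B77 went the other way, from 16.5% at day 3 to 8.45% at day 6, and 3B126 moved only from 1.37% to 3.45%. The day 3 cells of 3B126 stood apart from the rest, with a median of 3713 detected genes against 5096 to 6946 in the other clones and a TMM factor of 0.543 against 0.696 to 1.16. Their part in the low day 3 share of this clone was not tested. At day 8 the rule was met by 1 of 89 WT cells, 1 of 51 cells of 3B126, and by 0 of 72 in 3A38 and 0 of 40 in 3B77. The last 2 counts allow shares of up to 4.17% and 7.5% at a limit of 3 cells, or 4.99% and 8.81% as exact 95% upper bounds. Day 8 cells of 3A2 were not analysed here.

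The number of reads per cell bears on a rule that counts raw reads. The 80 cells had a median of 413358 reads (66346 to 2109306) and 6897 detected genes, and the other 268 day 6 cells had a median of 275762 reads and 5963.5 genes. The gap held within each clone, with medians of 354836 against 169294 in WT, 669902 against 425420 in 3B126, and 358305 against 232338 in 3B77. When every cell was thinned to 50000 reads, 10 day 6 cells still met the rule, 6 in 3B77, 2 in 3B126 and 2 in WT. With a limit of 20 CPM (reads of a gene scaled to the cell's total) in place of 5 reads, which does not rest on depth in the same way, 75 cells met the rule, 38 in 3B77, 22 in 3B126 and 15 in WT. No pair of cells had identical counts.

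The WT cells that met the rule were mixed in a way the 3BKO cells were not. At least 3 genes of an endoderm, an endothelium and blood, or a mesenchyme list reached 5 reads in 7 of the 13 WT cells, and in 0 of the 66 cells of 3B126 and 3B77. The endoderm list accounted for 4 of these WT cells, the blood list for 2 and the mesenchyme list for 2, with 1 cell in both of a pair of lists. Without the 7 cells, WT held 6 of 67 (8.96%). Of the other lists, at least 3 primitive streak genes were found in 5 of the 80 cells (4 of them in 3B77) and at least 3 surface ectoderm genes in 4 (3 of them in WT).

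**Figure D2:**
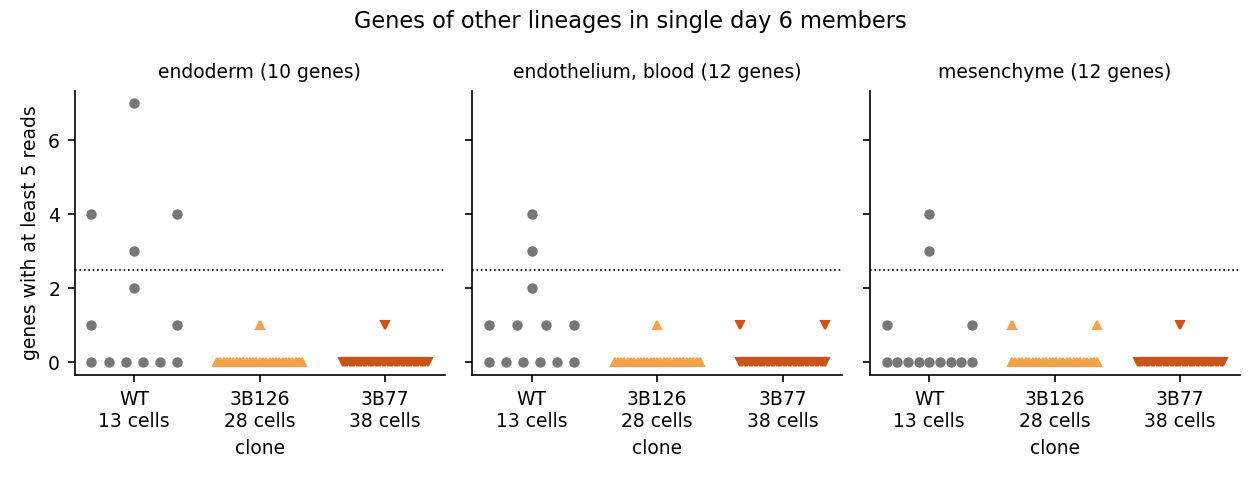
Number of genes of the endoderm, the endothelium and blood, and the mesenchyme list with at least 5 reads (y axis) in each primed-marker day 6 cell of WT, 3B126 and 3B77 (x axis), 1 point per cell. Points above the dotted line hold at least 3 genes of a list, which is the case for 7 of the 13 WT cells and for none of the 66 cells of 3B126 and 3B77.

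Checked against genes the rule did not use, the primed label held in part. The general pluripotency factors were present in most of the cells. Sall4 reached 5 reads in all 80 cells, Lin28a, which blocks let-7 maturation, in 86.3%, Nanog in 77.5%, Pou5f1 (Oct4) in 68.8% and Sox2 in 50%. Among the other day 6 cells these shares were 67.9%, 52.6%, 39.2%, 24.3% and 39.2%. Those 268 cells include 79 of 3A2 and 72 of 3A38, clones that held almost no primed-marker cells, so clone and batch differ too. They were also read less deeply. In sums of the same clones, the core pluripotency list had median log2 ratios to the other cells of 0.43 in WT, -0.17 in 3B126 and -0.23 in 3B77. Further primed genes were also common, with Sall2 at 91.3%, Zic2 at 81.3% and Car4 at 55.0%, against 45.1%, 36.9% and 13.1% of the other day 6 cells. Several genes that mark the epiblast at day 3 were rare or missing. The day 3 cells include 69 of 3A2 and 70 of 3A38, so clone and batch differ here as well as day. Utf1, a chromatin factor of pluripotent cells, reached 5 reads in 5.00% of the cells against 83.6% of all day 3 cells, and the Nodal co-receptor Tdgf1 (Cripto) in 17.5% against 94.8%. Dppa4 stood at 3.75% against 62.5%, Lefty1 at 13.8% against 64.9%, and Lefty2 at 6.25% against 76.4%. In addition, the retinoic acid binding protein Crabp2 reached 5 reads in 87.5% of the cells against 9.86% at day 3, Cdh2 in 47.5% against 11.2%, and the early neural factor Sox1 in 43.8% against 12.1%. The cells are therefore called primed-marker cells below, after the rule, and not primed epiblast.

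**Figure D3:**
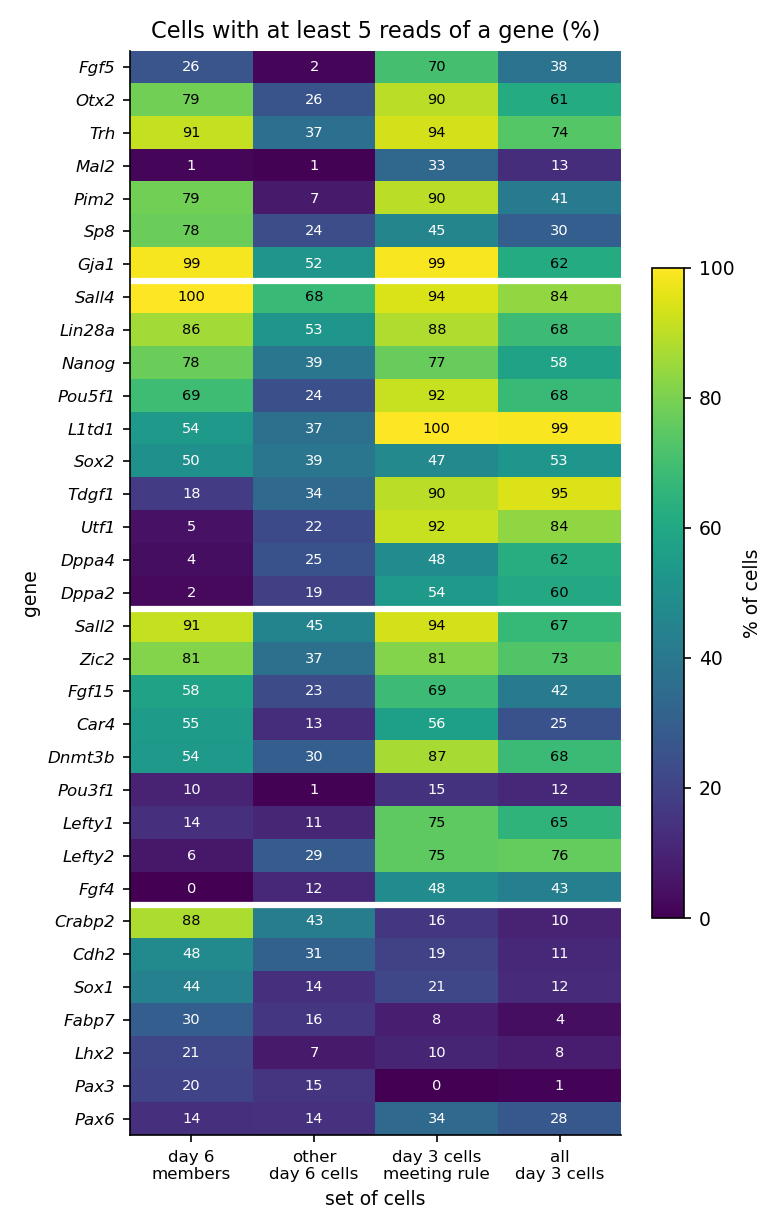
Share of cells, in percent, that reached 5 reads of a gene (colour and printed value) for 4 sets of cells (x axis) and genes grouped as the 7 markers of the rule, core pluripotency genes, further primed genes with Fgf4, and neural progenitor genes (y axis). In the day 6 members Sall4, Nanog and Pou5f1 are detected in 100%, 78% and 69% of cells, Utf1 in 5%, and Crabp2 in 88%.

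Detection after thinning to 50000 reads per cell, at 1 read or more, gave like shares. Crabp2 was then found in 78.8% of the primed-marker cells against 11.8% of all day 3 cells, Utf1 in 6.25% against 84.7% and Lefty2 in 7.5% against 77%. Against the 108 day 3 cells that met the same rule, which had a median of 316680 reads, the shares at 5 reads were 87.5% and 15.7% for Crabp2, 5.00% and 91.7% for Utf1, and 6.25% and 75.0% for Lefty2. As given above, 51 of those 108 cells were of 3A38 and 12 of 3A2, so clone and batch differ too.

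Pluripotency and neural genes were read in the same cells. Pou5f1 and Crabp2 both reached 5 reads in 48 of the 80 cells (60%), against 5.97% of the other day 6 cells, 8.77% of all day 3 cells and 15.7% of the day 3 cells that met the rule. As above, the other day 6 cells and both sets of day 3 cells include those of 3A2 and 3A38, which held almost no primed-marker cells at day 6. Nanog and Crabp2 were found together in 57 cells (71.3%), against 13.4%, 7.40% and 14.8%. Sox1 and Pou5f1 were found together in 23 cells (28.8%), against 2.99%, 11% and 21.3%. Singly, Crabp2 reached 5 reads in 70 of the 80 cells, Nanog in 62, Pou5f1 in 55 and Sox1 in 35. Whether the pairs were found together more often than these single counts give was not tested. At least 3 of the 18 neural progenitor genes reached 5 reads in 61.3% of the primed-marker cells. The share was 35.4% in the other day 6 cells and 7.95% in all day 3 cells. After thinning the shares were 53.8%, 39.6% and 13.4%. By clone the unthinned share in the primed-marker cells was 46.2% in WT, 60.7% in 3B126 and 68.4% in 3B77. The other day 6 cells include those of 3A2 and 3A38 and were read less deeply. In sums per clone, the list's median log2 ratio to the other cells was -0.71 in WT, -0.97 in 3B126 and -0.25 in 3B77. By this median the list was lower in the primed-marker cells of each clone. Of its 10 genes with at least 10 CPM in some sum, 2 had a ratio below -1 in every clone and 0 a ratio above 1. Doublets were not called, and the part of sorting 2 cells into a well in the shares of cells above was not tested.

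To compare days, raw counts were summed over the cells of a clone, which gave 3 sums of primed-marker cells (WT, 3B126 and 3B77), 5 sums of all day 3 cells, and 4 sums of day 3 cells that met the same rule (3B126 had only 4 such cells and gave no sum). The single cell of 3A2 entered no sum. Levels below are CPM scaled by trimmed mean of M values (TMM) over all sums, in the order WT, 3B126 and 3B77 at day 6, and WT, 3A2, 3A38, 3B126 and 3B77 at day 3. They are counts per gene, not per length, so levels are compared between samples and not between genes. With edgeR's quasi-likelihood test and Benjamini-Hochberg adjustment, 4 of 15219 genes differed between primed-marker cells and all day 3 cells (0.0263%), 2 higher and 2 lower (0.0131% each). At an unadjusted p under 0.05 there were 2005 genes, and DESeq2 called 877 of 14431, of which 237 were higher (1.64%) and 640 lower (4.43%), so the number of calls rests on the tool. The 2 tools set gene-wise spread in different ways, and the sums of a group differed widely. Leaving out WT, 3B126 or 3B77, which leaves 2 sums of primed-marker cells, ended all edgeR calls, and leaving out 3A38 gave 8. After every cell was thinned to 50000 reads before summing, edgeR called 15 genes higher (0.138%) and 20 lower (0.184%). With the clone as a replicate block it called 1 higher (0.00657%) and 4 lower (0.0263%). Genes of the rule were none of edgeR's 4 calls, but they were 8 of the lower calls of DESeq2, 4 of those in the thinned sums and 1 with the block. Without the day 3 sum of 3B126, which stood apart in detected genes, edgeR called 5 genes, 3 higher and 2 lower.

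Of the 4 called genes, Fam181b and Scn7a were higher in the primed-marker cells, and Fgf4 and Triml2 were lower. Each passed the filter on low counts only through the day on which it was high, so the values below describe these sums. Fam181b stood at 29.8, 261 and 167 in the day 6 sums, and at 0, 0, 0, 0.237 and 0.0658 at day 3 (log2 fold change 11.45 ± 1.28, SE, adjusted p = 0.0171). All its day 6 sums were far above every day 3 sum. The reads in the WT sum all came from the 7 WT cells with genes of another lineage, and the other 6 WT cells had no read of Fam181b. It was as high in the other day 6 cells, at 78.5, 314 and 203, so its rise was not particular to the primed-marker cells. Scn7a, a sodium channel family gene, stood at 27.6, 24.5 and 2.33 at day 6, and had 1 read in all day 3 cells (adjusted p = 0.0179). In the other day 6 cells Scn7a was at 2.53, 0 and 0. The same 7 WT cells also held every WT read of Scn7a. Without them Fam181b and Scn7a had too few reads in 3 sums to be tested, and edgeR called 2 genes, Fgf4 (adjusted p = 0.0207) and Triml2 (adjusted p = 0.0323).

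Fgf4, the growth factor by which pluripotent cells drive their own exit from the naive state, had 1 read in all primed-marker sums together. At day 3 it stood at 19, 88.0, 38.3, 49.0 and 45.4 (log2 fold change -10.60 ± 1.12, SE, adjusted p = 0.0171). Pooled over reads, its day 3 level was 1686 times the day 6 level, with a counting interval of 302.6 to 66623 that covers counting error only. The other day 6 cells of WT, 3B126 and 3B77 held it at 2.60, 23 and 12.2. Of the 80 primed-marker cells, 0 reached 5 reads of Fgf4, against 11.6% of all 268 other day 6 cells and 43.3% of all day 3 cells. Triml2 also had 1 read in the primed-marker sums, against 44.7, 96.1, 13.6, 31.9 and 31.5 at day 3 (adjusted p = 0.0179). Fam181b lies on chromosome 7 (93079865-93081867), Scn7a on 2 (66673425-66784914), Fgf4 on 7 (144847367-144865243) and Triml2 on 8 (43180541-43193881) in GRCm38.

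Against the day 3 cells that met the same rule, edgeR called 1 of 12782 genes (0.00782%), Fam181b (log2 fold change 11.49 ± 1.28, SE, adjusted p = 0.0236). Here too Fam181b passed the filter on low counts only through the day 6 sums, with 2 reads in the day 3 sums. There were 867 genes at an unadjusted p under 0.05, and DESeq2 called 237 of 12283, 104 higher (0.847%) and 133 lower (1.08%). Thinned sums gave 3 higher (0.0358%) and 6 lower (0.0715%) calls. With the clone as a replicate block, edgeR called Fam181b and Cd55 higher (2 genes, 0.0156%) and 3 genes lower (0.0235%), of which Lefty2 and Gm14124 are outside the rule and the other is a gene of the rule, whose call is no result. These names were taken after their values were seen. Genes of the rule were also 2 of DESeq2's lower calls and 1 of those in the thinned sums. Without the 7 WT cells Fam181b could not be tested and edgeR called 0 (783 at an unadjusted p under 0.05). Since few genes passed, lists are described below by how many genes had sums that did not overlap between days, beside 3.50% of all 15219 genes that were wholly higher and 5.44% that were wholly lower in the primed-marker sums than in all day 3 sums. The median log2 fold change of all genes was -0.12. Without the day 3 sum of 3B126 these shares were 4.35% and 7.14%, and without the 7 WT cells 2.75% and 5.83%.

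**Figure D4:**
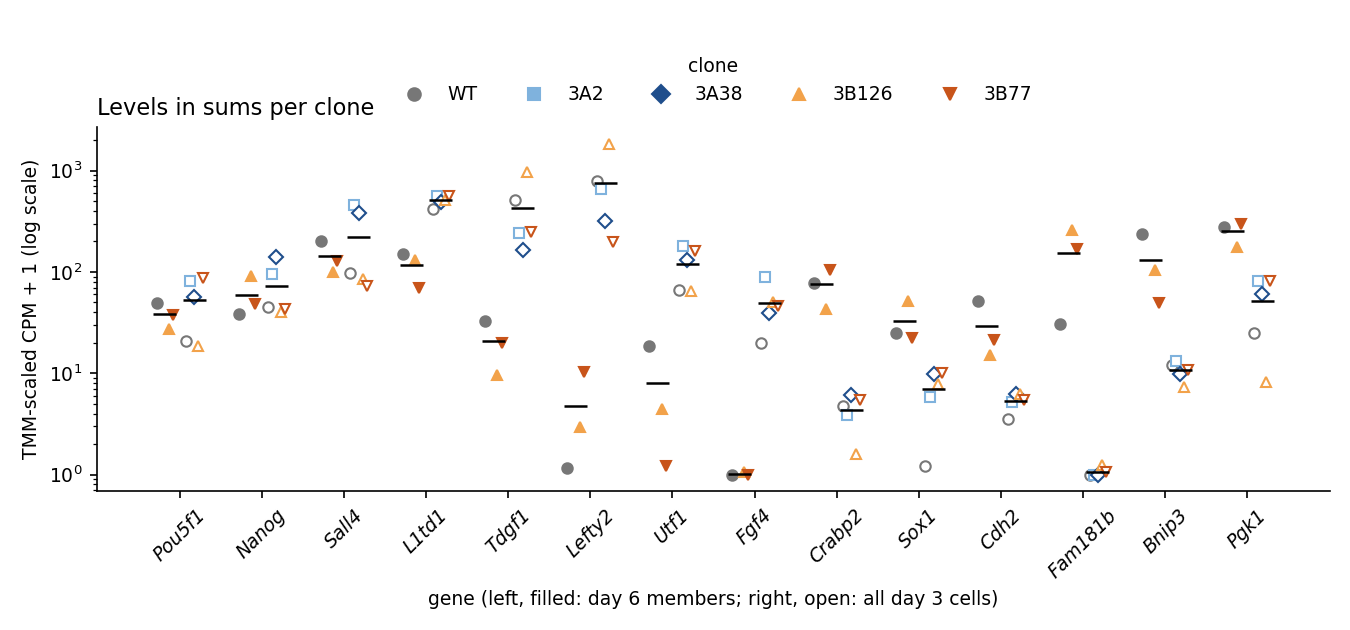
TMM-scaled CPM plus 1 (y axis, log scale) of 14 genes (x axis) in sums per clone, with the 3 sums of primed-marker day 6 cells as filled points on the left and the 5 sums of all day 3 cells as open points on the right. Bars mark the mean of CPM plus 1 in each set. Pou5f1, Nanog and Sall4 overlap between the sets, while L1td1, Tdgf1, Lefty2, Utf1 and Fgf4 are lower and Crabp2, Sox1, Cdh2, Fam181b, Bnip3 and Pgk1 higher in all primed-marker sums.

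The core pluripotency genes differed in how far their sums stood apart between days. All 12 genes of the list were tested and all 12 had a log2 fold change below 0, with a median of -1.43. Sums were wholly lower for 6 (Utf1, Tdgf1, L1td1, Dppa4, Dppa2 and Foxd3) and wholly higher for 0. edgeR called none of the 12, with 6 at an unadjusted p under 0.05, and DESeq2 called 5 lower (Utf1, Tdgf1, L1td1, Dppa4 and Foxd3). Against the day 3 cells that met the rule, 3 of 11 were wholly lower (Utf1, Tdgf1 and L1td1), with a median of -0.72, beside 5.01% wholly higher and 3.14% wholly lower of the 12782 genes in that comparison. Pou5f1 stood at 48.7, 26.5 and 36.9 in the primed-marker sums and at 19.7, 81.0, 56.1, 17.6 and 86.2 at day 3, so the days overlapped (log2 fold change -0.47 ± 0.63, SE). Nanog was at 37.6, 89.6 and 47.0 against 43.7, 95.4, 140, 39.4 and 41.8 (-0.30 ± 0.58). These errors do not show that Pou5f1 and Nanog stayed the same, since changes of more than 1 on the log2 scale lie within 2 standard errors.

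Tdgf1 was lower in every primed-marker sum. It stood at 32.0, 8.63 and 18.8, against 511, 244, 164, 961 and 248 at day 3 (log2 fold change -4.41 ± 0.82, SE, edgeR adjusted p = 0.106, DESeq2 adjusted p = 5.19e-07). Utf1 was at 17.7, 3.39 and 0.217 against 64.8, 181, 130, 63.6 and 159 (-4.10 ± 1.13, edgeR adjusted p = 0.215). L1td1, an RNA-binding protein that supports ESC self-renewal, kept the most of its level among the 6 lower genes, at 150, 131 and 68.5 against 418, 559, 484, 515 and 558 (-2.11 ± 0.47, edgeR adjusted p = 0.137). The thinned sums, in which every cell has the same weight, gave edgeR calls for Utf1 and Tdgf1 (adjusted p = 0.0230 for each) and for Dppa4 (adjusted p = 0.00512).

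Among 18 further primed epiblast genes, 5 were wholly lower (Lefty1, Lefty2, Tcf15, Grhl2 and Pou3f1) and 0 wholly higher, with a median log2 fold change of -1.33. edgeR called 0 of the 18, with 7 at an unadjusted p under 0.05, and DESeq2 called 4 of 17, all lower. With the day 3 cells that met the rule as the reference, 3 of 18 were wholly lower (Pou3f1, Lefty1 and Lefty2). Without the 7 WT cells 8 were wholly lower than in all day 3 cells, now with Nodal, Cldn6, Etv4 and Etv5 and without Pou3f1. Lefty2, a secreted inhibitor of Nodal, stood at 0.169, 1.92 and 9.32 in the primed-marker sums, and at 792, 655, 316, 1839 and 196 at day 3 (log2 fold change -7.58 ± 1.39, SE, edgeR adjusted p = 0.106). The lowest day 3 sum of Lefty2 was thus far above the highest primed-marker sum. Lefty1 was at 5.56, 4.28 and 17.6 against 110, 431, 167, 148 and 89.9 (-4.35 ± 0.82, adjusted p = 0.106). The primed genes Sall2 and Fgf15 overlapped between days. Sall2 was at 105, 254 and 138 against 39.6 to 154.

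The Nodal pathway list takes in its ligand, co-receptor, receptors and targets. Of 12 genes, 3 were wholly lower (Tdgf1, Lefty1 and Lefty2) and 1 wholly higher, with a median of -1.48. edgeR called 0 (5 at an unadjusted p under 0.05) and DESeq2 called the 3 lower genes. These 3 were also wholly lower than in the day 3 cells that met the rule, where 2 genes, Acvr1b and Acvr2b, were wholly higher. Without the 7 WT cells, Nodal and Smad7 were wholly lower too. The ligand Nodal itself was low on both days, at 6.07, 2.75 and 5.15 against 5.89, 19.4, 15.1, 7.12 and 9.47. The receptor Acvr2b was the gene that was higher, at 48.0, 44.0 and 44.8 against 31.3, 14.1, 18, 23.1 and 16.3 (log2 fold change 1.17 ± 0.45, SE, edgeR adjusted p = 0.321). In the FGF list only Fgf4 of 12 tested genes had sums that did not overlap, the median was -0.82, and DESeq2 also called Fgf4 alone. Without the 7 WT cells Spry4, Etv4 and Etv5 were wholly lower as well. The receptor Fgfr1 was at 35.4, 44.6 and 52.7, within its day 3 range of 22.7 to 77.2.

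**Figure D5:**
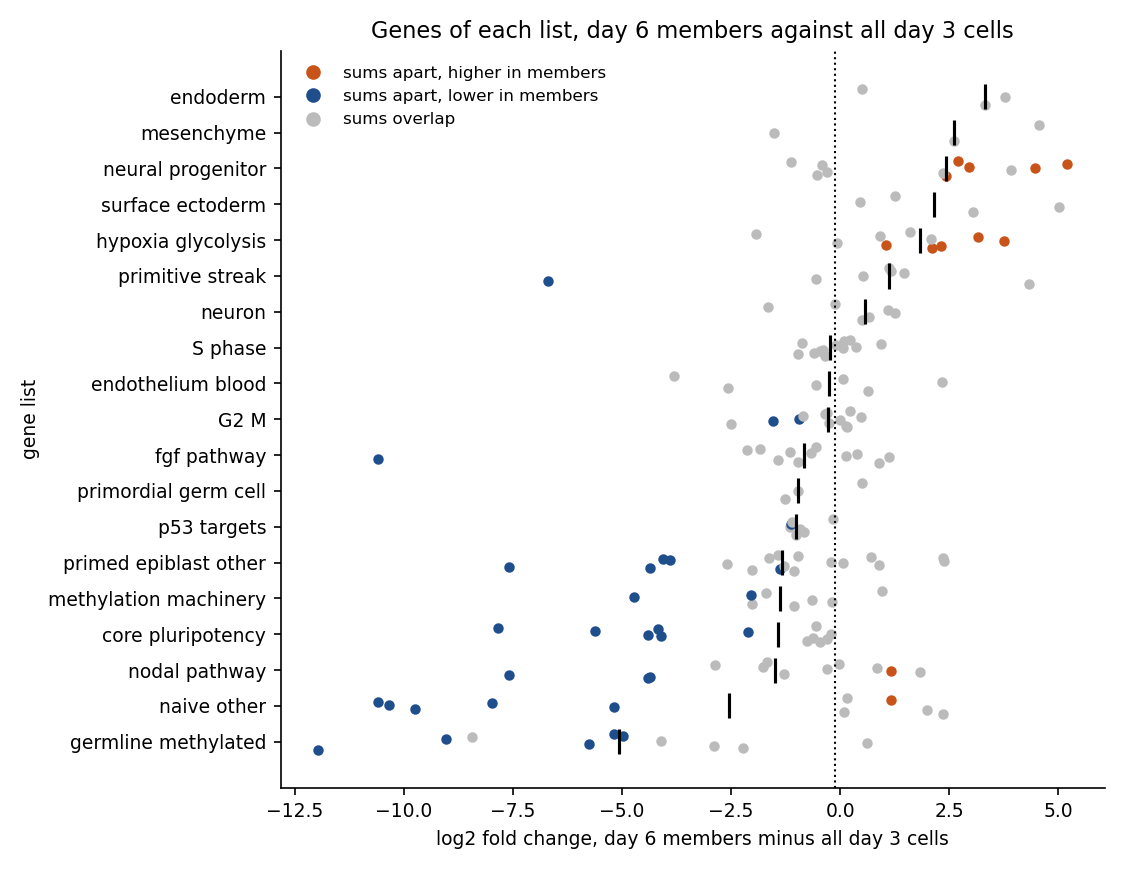
Log2 fold change of each tested gene, primed-marker day 6 cells against all day 3 cells (x axis), by gene list (y axis), with the list's median as a bar and the median of all genes (-0.12) as a dotted line. Coloured points are genes whose sums do not overlap between days. Neural progenitor and hypoxia lists hold 5 wholly higher genes each, and core pluripotency 6 wholly lower ones. The largest negative values belong to genes with few or no reads in the primed-marker cells, where the fitted fold change rests on the prior count.

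Neural progenitor genes held several whose sums were above every day 3 sum. Of 11 tested genes, 5 were wholly higher (Sox1, Crabp2, Fabp7, Pax3 and Cdh2) and 0 wholly lower, with a median log2 fold change of 2.44. edgeR called 0, with 6 at an unadjusted p under 0.05, and DESeq2 called 4 of 10 higher (Crabp1, Crabp2, Pax3 and Cdh2). Of 9 genes tested against the day 3 cells that met the rule, 4 were wholly higher (Sox1, Crabp2, Pax3 and Cdh2), with a median of 1.88. Crabp2 stood at 76.7, 42.1 and 104, against 3.74, 2.86, 5.08, 0.593 and 4.51 at day 3 (4.48 ± 0.68, SE, edgeR adjusted p = 0.0641, and 0.0230 in the thinned sums). In the other day 6 cells Crabp2 was higher still, at 115, 88.9 and 129. Sox1 was at 23.8, 50.7 and 21.1 against 0.205, 4.81, 8.87, 6.82 and 8.95 (2.44 ± 0.86, adjusted p = 0.292). The N-cadherin gene Cdh2 was at 50.7, 14.1 and 20.1 against 2.51 to 5.26 (2.71 ± 0.59, adjusted p = 0.137).

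Not every neural gene was higher. Pax6, a factor of neural progenitors, was at 7.25, 29.3 and 4.33 in the primed-marker sums and at 8.43 to 24.9 at day 3, and reached 5 reads in 13.8% of the cells against 27.7% at day 3. The 6 tested genes of the neuron list had a median of 0.58, and none had sums that did not overlap (0 at an unadjusted p under 0.05, and 0 called by DESeq2). Stmn2 and Tubb3, cytoskeletal genes used as neuron markers, reached 5 reads in 97.5% and 85.0% of the primed-marker cells, and also in 74.5% and 63.6% of all day 3 cells. Stmn2 was at 356, 318 and 293, and at 748, 73.8, 91.9, 772 and 92.5 at day 3, so Stmn2 did not separate the days. Against the day 3 cells that met the rule, 1 of 6 tested neuron genes, Tubb3, was wholly higher. There edgeR called 0 of the 6, and DESeq2 called Tubb3 higher (log2 fold change 1.97 ± 0.57, SE, DESeq2 adjusted p = 0.0340).

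The hypoxia and glycolysis list also held genes above every day 3 sum. Of 10 tested genes, 5 were wholly higher (Ldha, Pgk1, Slc2a1, Bnip3 and Ankrd37) and 0 wholly lower, 2 had a log2 fold change below 0, and the median was 1.84. edgeR called 0, with 7 at an unadjusted p under 0.05, and DESeq2 called 4 (Ldha, Pgk1, Bnip3 and Ankrd37). Bnip3, a mitophagy receptor induced by low oxygen, stood at 237, 103 and 48.8, against 11, 12.3, 8.80, 6.29 and 9.87 at day 3 (log2 fold change 3.75 ± 0.55, SE, edgeR adjusted p = 0.0641). Pgk1, a glycolytic enzyme, was at 280, 177 and 296 against 24.1, 80.8, 60.3, 7.18 and 79.8 (2.33 ± 0.68, adjusted p = 0.221). The other day 6 cells had like levels of Pgk1, at 234, 171 and 267. Bnip3 was at 76.3, 90.3 and 55.5 in them, like the primed-marker sums of 3B126 and 3B77 but well below that of WT (237). Against the day 3 cells that met the rule, the same 5 of 10 genes were wholly higher, with a median of 1.53.

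Most methylation machinery genes had sums that overlapped between days, but 7 of the 8 had a log2 fold change below 0. For Dnmt3a and Dnmt3b the day 3 range takes in the clones in which that gene is knocked out, so it reaches low values. Of 8 genes, 2 were wholly lower (Tet1 and Dnmt3l), with a median of -1.39, and edgeR called 0 (3 at an unadjusted p under 0.05, and 2 called by DESeq2). Of 7 genes tested against the day 3 cells that met the rule, Tet1 was wholly lower. Tet1, which oxidises methylated cytosine, was at 71.0, 146 and 89.5 against 359, 395, 239, 753 and 396 (log2 fold change -2.04 ± 0.54, SE, edgeR adjusted p = 0.201). The maintenance methyltransferase Dnmt1 was at 77.9, 91.2 and 105 against 73.4 to 151. Dnmt3a was at 39.4, 20.5 and 24.1, and Dnmt3b at 175, 73.6 and 9.48. Reads of the deleted Dnmt3b remained in both 3BKO sums, and a table of reads per gene does not show which exons they came from. At day 3, Dnmt3b was at 343.1 in WT and at 32.8 and 30.4 in the 3BKO clones, and Dnmt3a was at 21.8 and 12.3 in the 3AKO clones against 170 in WT. Within WT, both genes were thus lower in the primed-marker sum than in the day 3 sum.

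Genes of the germline, which are commonly silenced by promoter methylation as the epiblast forms, gave different counts against the 2 sets of day 3 cells. Of 10 tested genes, 5 were wholly lower and 0 wholly higher, with a median of -5.07 (-4.79 with the 3 genes that had no read in the primed-marker sums at a limit of 3 reads). edgeR called 0 (7 at an unadjusted p under 0.05), and DESeq2 called 5 of 7 lower. Against the day 3 cells that met the rule, 0 of 9 had sums that did not overlap, with a median of -3.78. Dazl, an RNA-binding protein of germ cells, had no read in the primed-marker sums and was at 12, 70.9, 17.6, 0.475 and 12.3 at day 3, and the WT day 3 cells that met the rule had no read of it either. Of 10 naive genes outside the rule, 5 were wholly lower and 1 wholly higher, and the median was -2.54 (-1.97 with the 3 genes without reads at that limit). Fgf4 was the edgeR call, and DESeq2 called 5 of 9 lower. Against the day 3 cells that met the rule, 5 of these naive genes had enough reads to test, 1 wholly lower and 2 wholly higher.

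Proliferation genes gave no clear difference. Of 12 S phase genes, 0 had sums that did not overlap (median -0.22), and of 12 G2 and M phase genes 2 were wholly lower, Kif11 and Aurka (median -0.27). In the comparison with day 3 cells that met the rule, 2 S phase genes were wholly lower, Mcm5 and Ccne1, and 0 G2 and M phase genes. edgeR called none of them, with 0 and 2 at an unadjusted p under 0.05, and DESeq2 called none. At least 3 of the G2 and M phase genes were found in 96.3% of the primed-marker cells and 95.9% of all day 3 cells. Of 7 p53 target genes, all had log2 fold changes below 0 (median -1.0) and 1 was wholly lower, with 0 at an unadjusted p under 0.05 and 0 called by edgeR or DESeq2. The markers of other fates were thinly covered. Of the tested genes of the primitive streak (7), endoderm (3), endothelium and blood (6), mesenchyme (3), surface ectoderm (4) and primordial germ cell (3) lists, 1 had sums that did not overlap, the streak gene Mixl1 with 1 read in the primed-marker sums. It was lower than in every day 3 sum. edgeR called none of these, with 2 streak, 1 mesenchyme and 1 surface ectoderm gene at an unadjusted p under 0.05, and DESeq2 called Mixl1.

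The other day 6 cells of the same clones are the rule's own comparison, so the values that follow are a description. Of 9297 genes with at least 10 CPM in some sum, 51 (0.549%) had a log2 ratio above 1 in all 3 clones and 110 (1.18%) a ratio below -1 in all 3. The higher genes with the largest smallest ratio over clones included Mfap3l, Arhgef26, Lrrc9, Zfp558, Eras, Scn7a, the potassium channel gene Kcnj3 and the neural adhesion gene Nrcam. Eras, a Ras-like gene of ESCs, stood at 74.5, 49.5 and 36.5 in the primed-marker cells and at 1.90, 13.5 and 6.35 in the other cells of the same clones. Its log2 ratios were 4.70, 1.80 and 2.35. Eras was also above every day 3 sum (0.415 to 21.1, log2 fold change 2.23 ± 0.85, SE, edgeR adjusted p = 0.315). Mfap3l was at 22.1, 34.8 and 9.75 against 1.2, 0.629 and 0.592.

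The genes lower than in the other day 6 cells were led by Spp1, Zfp936, Lrrc34, Morc1, Zfp874a, Pdgfra, Dlc1 and Plac1. Spp1, the secreted matrix protein osteopontin, had no read in any primed-marker sum and was at 19.0, 776 and 172 in the other day 6 cells of WT, 3B126 and 3B77. Pdgfra, a receptor of mesoderm and primitive endoderm, was at 3.88, 0.256 and 0 against 29.8, 20.5 and 6.43. Morc1, a germ cell gene that silences transposons, had no read in the primed-marker sums, against 7.04, 49.2 and 17.8. Of the core pluripotency genes, 2 of 11 with enough reads had a ratio below -1 in all 3 clones, and 0 had a ratio above 1. Sums are weighted by deep cells and shares of cells are not. For Nanog the shares were 77.5% against 39.2% of cells, and the sums were 37.6, 89.6 and 47.0 against 27.7, 48.9 and 44.0. The share of 39.2% includes the other day 6 cells of 3A2 and 3A38, and the sums are of WT, 3B126 and 3B77 only. Shares and sums of Nanog thus compare different cells, and the part of depth in their difference was not tested.

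The primed-marker cells varied among themselves in Fgf5. The 21 cells with at least 5 reads of Fgf5 came from WT (6), 3A2 (1), 3B126 (8) and 3B77 (6), and had a median of 471414 reads against 394817 in the 59 cells without. Car4 reached 5 reads in 81.0% of the 21 and 45.8% of the 59 cells, and Dnmt3b in 71.4% and 47.5%. Crabp2 was found in 76.2% and 91.5%, Sp8 in 61.9% and 83.1%, and Sox1 in 33.3% and 47.5%. Pou5f1 was found in like shares, 71.4% and 67.8%, as was Cdh2, 47.6% and 47.5%. A cell without Fgf5 must hold 4 of the other 6 markers, so the marker shares of the 2 sets are tied to each other by the rule. No test was made of these shares, since the cells of a clone share their source.

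The primed-marker cells of 3BKO and WT were then compared with each other. edgeR called 27 of 14838 genes (0.182%), all lower in the 3BKO cells, and DESeq2 called 387. The WT side is 1 sum of 13 cells, which is assumed to vary like the 3BKO sums, and the model has 1 residual degree of freedom, so the values below describe these 3 sums more than the genotypes. The genes called by edgeR with the largest change were Spink1, Apob, Hbb-bh1, Hba-x, Cfc1, Cltrn, Fam135b and Slco4c1, each with no read in either 3BKO sum. They passed the filter on low counts only through the WT sum, where they are high. Spink1, a protease inhibitor, stood at 650 in the WT sum, and Apob, the lipoprotein of yolk sac endoderm and liver, at 617. The embryonic globin genes Hbb-bh1 and Hba-x were at 372 and 277. Against a limit of 3 reads over the 3BKO cells, Spink1 was at least 7483-fold and Hba-x at least 3184-fold lower in 3BKO. Without the 7 WT cells that held endoderm, blood or mesenchyme genes, edgeR called 0 genes (1475 at an unadjusted p under 0.05), and none of the 8 genes had enough reads to be tested. The other 6 WT cells held 1 read of Cfc1 and no read of the other 7.

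Among the primed-marker cells, edgeR called 0 of 11 core pluripotency genes (1 at an unadjusted p under 0.05) and 1 of 17 further primed genes between 3BKO and WT, the tight junction gene Cldn6. Pou5f1 was at 48.7 in WT and at 26.5 and 36.9 in 3B126 and 3B77. Utf1 stood at 17.7 in WT, and at 3.39 in 3B126 and 0.217 in 3B77. Dppa2 was at 0 in WT, 53.1 in 3B126 and 0.163 in 3B77, so that it set 3B126 apart from the other 2 clones. The test of whether the change from day 3 differed between 3BKO and the other clones called 0 of 20405 genes by edgeR (725 at an unadjusted p under 0.05) and 76 by DESeq2.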

How the data were processed

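Single cells of embryoid bodies were sequenced by a modified Smart-seq2 protocol without molecular identifiers, so PCR copies count as reads. The deposited table gives, for every gene in each cell, the authors' raw counts of reads. According to the study's methods and to the submitters' processing notes, FastQC 0.11.2, Trim Galore 0.5.0, STAR 2.7.1a (mm10/GRCm38) and featureCounts 1.6.1 with a GENCODE annotation were used, multi-mapped reads were left out, and the authors removed shallow cells and those rich in mitochondrial reads. How strand was handled in counting is not given in the sources used, and overlapping genes on opposite strands then cannot be told apart.

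Members and gene lists were chosen with earlier results of these data known. Raw counts were summed per clone (at least 5 cells) and tested with edgeR 4.0.16 (quasi-likelihood, robust, filterByExpr, TMM, Benjamini-Hochberg, threshold 0.05). The alternatives were DESeq2 1.42.0, no filter, cells thinned to 50000 reads, other marker limits, the clone as a replicate block, and leaving out each clone. Of the tools, edgeR alone was tested on simulated counts. These were drawn with a smaller spread than the sums had, whose common coefficient of variation was 0.810 to 1.01 over the models. The simulation therefore does not show how edgeR performs on these sums. The model comparing 3BKO with WT used the day 6 sums of these cells only, and the model of the difference in change between genotypes used those and the sums of all day 3 cells. Printed levels are TMM-scaled CPM on a common scale over 15 sums, and fold changes come from each model's own scaling. Ratios to the other day 6 cells are log2 of CPM plus 1 per clone. Shares were compared over clones by exact permutation. The genes named from a comparison are up to 8 per direction with the largest change among those called, outside the 14 genes of the rule, with at least 10 CPM in the higher group and the same direction in every clone with both sums, or, against the other day 6 cells, with the largest ratio in the clone nearest to 0. Other genes are from the lists.

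The same clone name marks the same cell line, so clones pair the days. Deviations from the group means of the same clone correlated across genes with r = 0.0245 in WT, 0.0650 in 3B126 and 0.0908 in 3B77. Between 66346 and 2109306 reads were counted per selected cell, and 5485224 to 19076592 per sum of these cells. Gene positions are from GENCODE M21. R 4.3.3, Python 3.11.15, NumPy 2.4.6, pandas 2.3.3 and SciPy 1.17.1 were used.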

Additional observations from a re-analysis of the deposited data

Results flagged for a closer look

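From day 3 to day 6 the share of cells that met the marker rule moved in opposite directions in the knockout clones, up in both 3BKO clones (42.8 and 7.95 percentage points) and down in both 3AKO clones (-16.1 and -72.9). The direction in 3B77 rests on the rule, since after thinning to 50000 reads its share went from 16.5% to 8.45% (-8.0 points) and that of 3B126 only from 1.37% to 3.45%. With 10 reads in place of 5, 5 of 7 markers or at most 3 naive genes the change in 3B77 was -3.89, -12.8 and -3.44 points. The mean change was 69.9 points higher in 3BKO than in 3AKO. An exact permutation of the 4 clones gave p = 0.333, the smallest p it allows, and the 3AKO clones share a batch that holds no 3BKO cells, so genotype and batch cannot be told apart here.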

How the results depend on the processing

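The number of cells selected moved with the rule, to 122 at 3 of 7 markers, 35 at 5 of 7 and 10 after thinning. Leaving out a marker, an alternative chosen after seeing the data like the removal of WT cells with genes of another lineage, gave 50 cells without Otx2, 41 without Trh, 50 without Pim2, 52 without Sp8 and 36 without Gja1. The difference in share between 3BKO and the other clones ranged from 40.6 to 50.3 points when a clone was left out. It was 38.3 at a limit of 20 CPM, but 4.95 after thinning (exact two-sided permutation p = 0.2). At 5 of 7 markers it was 22.1, and without Otx2, Trh, Pim2, Sp8 or Gja1 it was 28.4, 26.7, 27.4, 27.7 and 22.9. The mean change in share from day 3 turned from -5.12 to 5.08 points with at most 1 naive gene, and ranged from -17.1 to 11.8 when a clone was left out. Without pairing by clone, that is with no replicate block, it was -5.12 (exact permutation p = 0.738).

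The counts of called genes were the least stable results. Against all day 3 cells, edgeR's 4 calls became 877 with DESeq2, 64 with no filter, 35 after thinning, 1 with members of 5 markers, 2 without the WT cells of another lineage, and 0 to 8 when a clone was left out. Against the day 3 cells that met the rule, 1 call became 237, 41 and 9 under the first 3 of these, 0 without those WT cells, and 0 to 1 without a clone, and with at least 10 cells per sum the 1 call was Fgf4, lower, in place of Fam181b. With the replicate block the 2 day comparisons had 5 calls each, and Scn7a lost its call (adjusted p = 0.102). Between 3BKO and WT, 27 calls became 387 with DESeq2, 364 with no filter and 0 without those WT cells. No 3AKO clone has a sum in that model, so leaving one out was no alternative. For the difference in change between genotypes, 0 calls became 76 with DESeq2, 74 with no filter, and 0 to 2 without a clone. Leaving out WT, 3B126 or 3B77 (for the change between genotypes, WT) and the 5-marker limit could not be fitted for the genotype models. The cause of these moves was not tested.

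For the named genes, 84 alternative fits kept the direction and the call, and 23 kept the direction only. Without the WT cells of another lineage, Fam181b, Scn7a and all 8 genes named between 3BKO and WT had too few reads to be tested, so they are not in these counts. The common coefficient of variation was 0.900 against all day 3 cells, and the WT sum rests on 13 cells. The 4 edgeR calls all had next to no reads on one of the days, while DESeq2 called smaller differences, such as L1td1 at -2.09 on the log2 scale.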
